A study of Mus musculus with 12 samples.

Results

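The Notch genes described here are 9 of the 23174 lines in each of the study's FPKM tables: the receptors Notch1, Notch2 and Notch3, the receptor-modifying enzyme Lfng, and Hes1, Dtx1, Nrarp, Heyl and Ptcra, which are known direct targets of Notch in T cells or elsewhere. They were chosen by symbol, with earlier results of these data known, and each stood on 1 line of both tables. All 9 passed the filter on low values (mean over a table's 6 samples of 1 FPKM or more), so none was lost. FPKM counts fragments relative to transcript length and library size, so levels of different genes can be set side by side within a table.

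Notch receptors are cut after they bind a ligand of the Delta or Jagged families on a neighbouring cell, and gamma-secretase then frees the intracellular part. That part enters the nucleus, binds the DNA-binding protein RBPJ and recruits Mastermind-like proteins and the acetyltransferases p300 and CBP to switch on target genes. Fringe enzymes such as Lfng add sugars to the extracellular part and shift which ligands a receptor answers to. Notch1 directs early progenitors into the T lineage, and activating changes in it drive T-ALL, the acute lymphoblastic leukaemia of immature T cells.

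The study sequenced polyadenylated RNA of 12 C57BL/6 mouse T-ALL samples, all carrying the Notch1-deltaE+ allele, an activated Notch1 that lacks most of the extracellular part. In the ex vivo experiment, 3 samples received vehicle and 3 received AMD3100, an antagonist of the chemokine receptor CXCR4. In the other experiment, 3 primary tumours were Cxcr4+/+ (wild type, numbered 1, 2 and 4) and 3 were Cxcr4-/- (knockout, numbered 5, 7 and 8). The comparisons ask what the leukaemia cells express when CXCR4 is blocked or missing. Controls and treated or knockout samples alike carry the activated Notch1, so no group here is without it. Not given in the sources used here are the promoter or cell type that drives the allele, the age of the animals, and how much AMD3100 was used and for how long. The labels describe cells taken from spleen and kept on OP9, a mouse bone marrow stromal line, with IL-7, a T cell growth factor, at 5 ng/ml, and give this for the tumours too. Whether the samples of a group are separate animals or cultures is not stated, so p-values reflect only the spread among these samples, and that spread may be technical.

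Summed FPKM ran from 444803 to 480468 per ex vivo library and from 368118 to 581159 per tumour. Read totals cannot be taken from FPKM, but relative depth ex vivo was read from the step size of low values. Against vehicle 1 it was 0.908 and 0.757 in the other vehicle libraries, and 1.06, 1.25 and 1.21 in the AMD3100 libraries. Cxcr4, the targeted gene, was listed at 241, 155 and 206 FPKM in wild-type tumours 1, 2 and 4 and at 23.2, 78.9 and 21.9 FPKM in knockout tumours 5, 7 and 8. All 3 knockout tumours lay below all 3 wild-type tumours, and knockout 7 kept the most. Defining T cell markers were present in every library, with the summed FPKM of Cd3d, Cd3e, Cd3g, Cd247, Lck and Thy1 between 4108 and 4770 ex vivo. In the tumours that sum was less even, at 4295, 1143 and 1496 FPKM in wild type 1, 2 and 4 and 1534, 3261 and 2710 FPKM in knockout 5, 7 and 8. The share of summed FPKM on haemoglobin genes ran from 1.29% to 23.0% in wild type and from 2.76% to 20.4% in knockout. In such bulk samples fewer cells of a type and less RNA per cell cannot be told apart.

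Dtx1, which encodes an E3 ubiquitin ligase that regulates Notch, had the highest mean FPKM of the 9 genes in all 4 groups, from 194 ± 59.4 (SD, n = 3) with vehicle to 335 ± 123 in knockout tumours. With vehicle its range overlapped that of Ptcra, which encodes the pre-T cell receptor alpha chain, at 169.7 ± 31.7 FPKM, and that of Notch1 at 164 ± 7.60 FPKM. Every vehicle library had these 3 genes above the other 6. Nrarp, Hes1 and Notch3 followed in overlapping ranges at 67.4 ± 39.0, 59.8 ± 9.35 and 44.9 ± 19.3 FPKM. Heyl, Lfng and Notch2 were lowest and overlapped each other, at 10.0 ± 7.97, 8.35 ± 2.87 and 4.81 ± 1.85 FPKM. Lfng held a different place in each experiment. It was eighth of 9 with vehicle, sixth in wild-type tumours and second in knockout tumours, where only Dtx1 was higher in mean. In knockout tumours Notch3 had the lowest mean of the 9, with a range that overlapped those of Ptcra and Hes1, and in knockout 8 Hes1 was lower.

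The promoters of Lfng and Ptcra are shown because these genes had groups that did not overlap after AMD3100, in opposite directions, and because they alone held the core RBPJ recognition letters TGGGAA among the members' promoters. Capitals mark TGGGAA or its reverse complement TTCCCA. The sequences are from RefSeq on build GRCm38.p6, upstream of the gene's start and outside the transcript. The search covered both strands from 250 bases before to 50 bases after the start, with overlapping matches allowed. Of the 9 members, 7 were in the promoter table, and Hes1 and Heyl were not.
Lfng, chr5:140607186-140607258, plus strand, 155 to 83 bases before the start: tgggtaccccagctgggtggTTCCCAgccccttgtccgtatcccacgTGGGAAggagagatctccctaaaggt
Ptcra, chr17:46763719-46763816, minus strand, 104 to 7 bases before the start: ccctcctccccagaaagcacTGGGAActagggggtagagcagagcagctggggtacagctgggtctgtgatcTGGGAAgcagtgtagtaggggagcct

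Both windows held 2 matches. Of all 32851 promoter windows of the same length, 25.6% held at least 1 match and 3.79% held 2 or more. The match is a description of the letters and does not show binding.

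With AMD3100, the leukaemia cells had more Notch3, Notch2, Lfng, Hes1 and Dtx1 RNA when same-numbered vehicle and AMD3100 samples were paired, and none of the 9 genes passed the test without pairing. Lfng had the largest difference, 2.36 times the vehicle mean. Ptcra was the only member with all AMD3100 samples below all vehicle samples, and it did not pass either test. Nrarp and Heyl showed no common direction over the pairs.

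The test was limma on log2(FPKM + 1), adjusted by Benjamini-Hochberg over all 10245 genes kept ex vivo; a gene was called where its adjusted p was under 0.05. Without pairing it called 0 of the 9 members, with 1 of them (Lfng) at an unadjusted p under 0.05. It called 0.127% of all genes (0.0488% higher and 0.0781% lower), and 21.5% had an unadjusted p under 0.05. With pairing it called 5 of the 9 higher and 0 lower, against 19.9% of all genes (9.96% higher and 9.92% lower). Fold changes on the log2(FPKM + 1) scale understate the change of low genes such as Notch2. The median log2 difference of the members was 0.32, against 0.00 over all genes tested.

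Notch3, a receptor that is itself induced by Notch1 in T cell precursors, stood at 39.7, 66.3 and 28.7 FPKM in vehicle samples 1, 2 and 3 and at 63.3, 99.3 and 58.0 FPKM in AMD3100 samples 1, 2 and 3. The groups overlapped, because vehicle 2 lay above AMD3100 samples 1 and 3, but AMD3100 was higher in 3 of 3 pairs, as held for 30.8% of all genes tested. The pairs' ratios were 1.59, 1.5 and 2.02. This was a log2 difference of 0.74 (paired SE 0.10, limma adjusted p = 0.0199). Without pairing the SE was 0.35 and the adjusted p 0.288.

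Notch2, a receptor prominent in B cells and myeloid cells, stood at 3.04, 4.66 and 6.73 FPKM with vehicle and at 5.00, 6.65 and 10.1 FPKM with AMD3100. The order of the replicate numbers was the same in both groups, and the ranges overlapped. On the log2 scale the difference was 0.51 (paired SE 0.10, limma adjusted p = 0.0334, higher in 3 of 3 pairs). Without pairing the adjusted p was 0.439.

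Notch1, the receptor altered in these cells, stood at 157, 172 and 163 FPKM with vehicle and at 193, 250.3 and 174 FPKM with AMD3100. The groups did not overlap, although vehicle 2 and AMD3100 3 lay close together. Such a separation, in either direction, was seen for 28.9% of all genes tested, and for 13.1% in the direction of Notch1. The log2 difference was 0.31 (paired SE 0.10, 95% interval 0.05 to 0.57), and Notch1 was not called (limma adjusted p = 0.0907 paired and 0.292 unpaired). FPKM on the Notch1 line may hold reads of the activated and the endogenous allele, which cannot be told apart here.

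Lfng, the fringe enzyme, stood at 9.84, 10.2 and 5.04 FPKM with vehicle and at 17.3, 20.9 and 20.9 FPKM with AMD3100. The lowest AMD3100 sample was well above the highest vehicle sample. The means were 8.35 ± 2.87 and 19.7 ± 2.10 FPKM (SD, n = 3), a log2 difference of 1.19 (paired SE 0.23, limma adjusted p = 0.0300). Pair 3 had the largest ratio, 4.15, against 1.76 and 2.05 in pairs 1 and 2. Without pairing the SE was 0.26 and the adjusted p 0.0769. The related fringe Mfng averaged 35.2 ± 2.55 FPKM with vehicle and 34.2 ± 2.15 with AMD3100, above Lfng in every ex vivo sample. Its log2 difference of -0.04 was not called (paired adjusted p = 0.770) and was 0.06 after scaling to T cell markers.

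Among the targets, Hes1, which encodes a transcriptional repressor, stood at 55.8, 70.5 and 53.1 FPKM with vehicle and at 66.4, 87.5 and 71.2 FPKM with AMD3100. The groups overlapped through vehicle 2 and AMD3100 1. The pairs' ratios were close to each other, at 1.19, 1.24 and 1.34, and the log2 difference was 0.32 (paired SE 0.07, limma adjusted p = 0.0345; 0.293 without pairing).

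Dtx1 stood at 193, 254 and 135 FPKM with vehicle and at 238, 346 and 168 FPKM with AMD3100. The spread between replicate numbers was larger than the difference between groups, and sample 2 was highest in both. The log2 difference was 0.35 (paired SE 0.07, limma adjusted p = 0.0309; 0.621 without pairing).

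Ptcra stood at 146, 158 and 206 FPKM with vehicle and at 93.3, 139 and 42.5 FPKM with AMD3100. It was lower in 3 of 3 pairs, as were 29.4% of all genes. Its groups did not overlap, as held for 15.8% of all genes in that direction. The pairs' ratios were uneven, at 0.640, 0.881 and 0.206. The log2 difference of -1.02 (paired SE 0.40) was not called (limma adjusted p = 0.127 paired and 0.240 unpaired). Without pair 3 it was -0.41.

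Nrarp, which encodes a feedback inhibitor of the Notch transcription complex, stood at 95.3, 84.0 and 22.8 FPKM with vehicle and at 76.5, 94.3 and 28.7 FPKM with AMD3100. Sample 3 was low in both groups, and 2 of 3 pairs were higher with AMD3100. On the log2 scale AMD3100 differed from vehicle by 0.06 (95% paired interval -0.29 to 0.40), not called (limma adjusted p = 0.784).

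Heyl, which encodes a repressor related to Hes1, stood at 17.1, 1.38 and 11.7 FPKM with vehicle and at 14.3, 1.88 and 7.95 FPKM with AMD3100. Sample 2 was low in both groups. A log2 difference of -0.16 (95% paired interval -0.60 to 0.28) was not called (limma adjusted p = 0.538), and 1 of 3 pairs was higher.

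**Figure D1:**
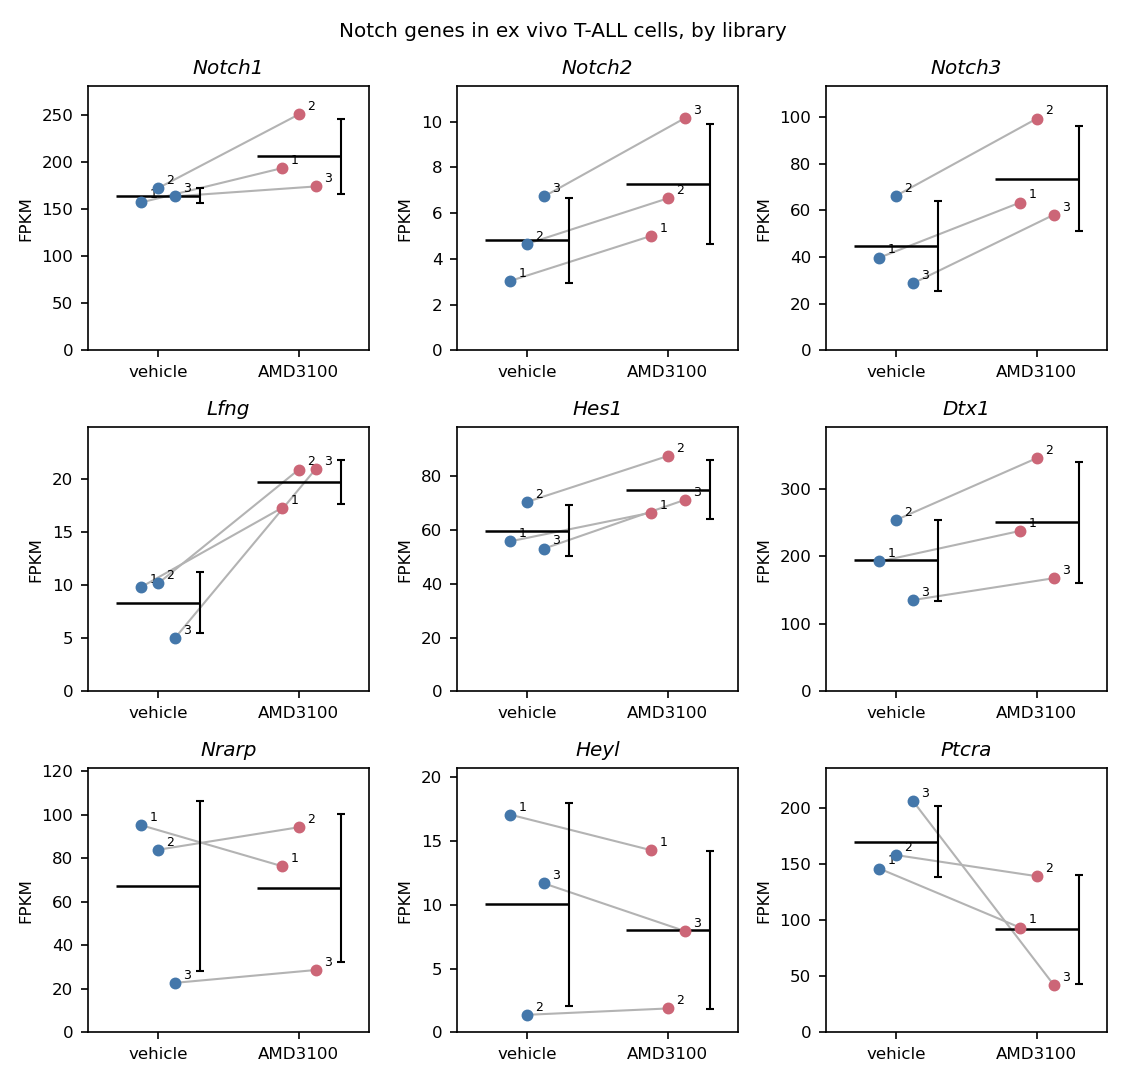
FPKM of each of the 9 Notch genes in the ex vivo libraries, 1 panel a gene with its own axis; points are libraries, lines join vehicle and AMD3100 samples with the same number, and black lines and bars are the mean and SD of 3 samples. The 3 lines run upward for Notch1, Notch2, Notch3, Lfng, Hes1 and Dtx1 and downward for Ptcra, while those of Nrarp and Heyl run both ways.

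The paired calls rest on few samples. Without pair 1 or without pair 2 none of the 5 was called, and without pair 3 only Notch3 (0.62) and Lfng (0.86) were, while each of the 5 kept its direction in all 3 cases. Longer transcripts had higher paired differences across genes (Spearman 0.321 over 10079 genes with a length), and the AMD3100 libraries were deeper in each pair. Notch1, Notch2 and Notch3, at 9488, 10500 and 8016 bases for the longest transcript, are long, whereas Lfng, Hes1 and Ptcra, at 2305, 1468 and 1283 bases, are short. After correction of the paired fit for length, Lfng (1.27, limma adjusted p = 0.0368), Hes1 (0.47, adjusted p = 0.0301), Notch3 (0.51, adjusted p = 0.0417) and Dtx1 (0.32, adjusted p = 0.0471) remained called. Notch2 did not (0.21, adjusted p = 0.221), and the difference of Notch1 was 0.03 (adjusted p = 0.833). The part of depth in these results was not tested.

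Markers of stromal cells, the type of the OP9 feeder, were summed as well. The summed FPKM of the 10 stromal markers was 159, 199 and 15.2 with vehicle and 176, 205 and 25.3 with AMD3100, higher in each pair, and 2 of the 10 were at 0 in every ex vivo library. Pdgfrb made up most of it in pairs 1 and 2, at 136 to 186 FPKM, but stood at 4.20 and 11.2 FPKM in pair 3, less than the rest of the list together, while the collagen gene Col1a1 was listed at 0.655 to 3.11 FPKM. The sum does not stand for the list, because only 2 of the 6 stromal markers kept had a positive difference. The median log2 difference of the stromal markers kept was -0.19. Their part in the differences of the Notch genes was not tested. Relative to the geometric mean of the 6 T cell markers, Notch1, Notch3, Lfng and Hes1 had AMD3100 samples all above vehicle samples, 4 of the 9 members, against 22.2% of all genes that separated in either direction on that scale. On it the paired fit called 6 members, the same 5 and Notch1 (0.41, limma adjusted p = 0.0490). Before scaling, the 6 markers themselves had a median log2 difference of -0.12, with 2 positive and 1 called lower with pairing. This scaling moved the median difference of all genes by 0.09 and the split of all paired calls from 1020 higher and 1016 lower to 1479 higher and 504 lower.

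**Figure D2:**
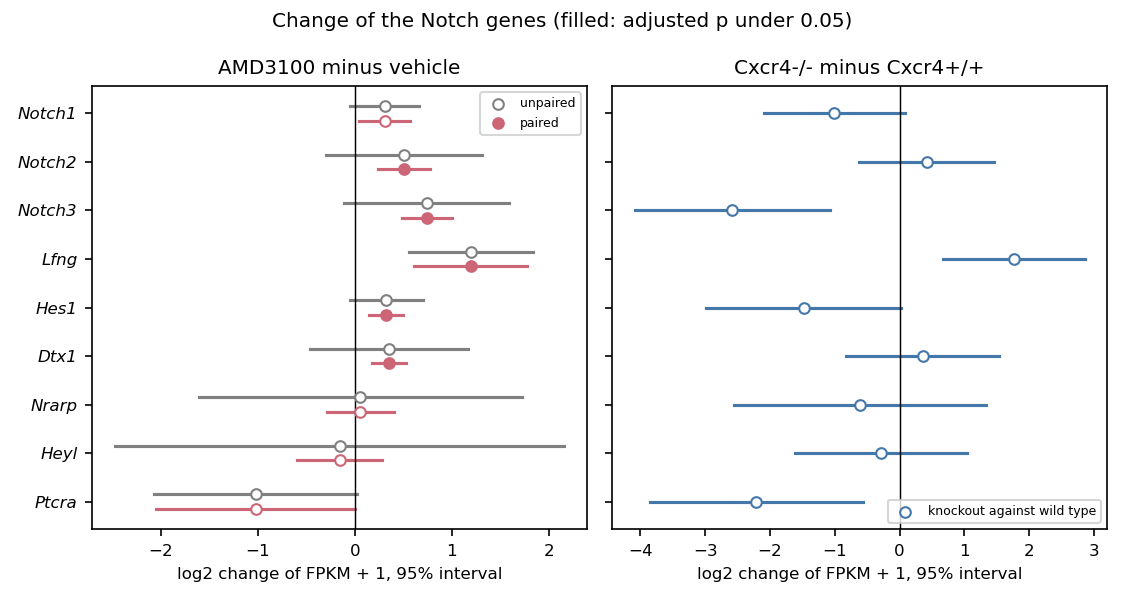
Log2 difference of FPKM + 1 for each member, AMD3100 minus vehicle (paired fit in red, fit without pairing in grey) and knockout minus wild-type tumours. Bars are the 95% interval of each fit, and filled points had an adjusted p under 0.05. Lfng lies above 0 in both comparisons, while Notch3 lies at 0.74 ex vivo and at -2.58 in the tumours, where no point is filled.

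The wider Notch pathway was read from a list of 44 other genes by role, of which 35 were kept ex vivo. With pairing 9 were called higher and 0 lower, against 9.96% higher and 9.92% lower of all genes. Without pairing limma called 0, against 0.127% of all genes. An unadjusted p under 0.05 was seen without pairing for 12 of the list, against 21.5% of all genes. The list's median difference was 0.14. Of 10 kept genes of the nuclear activation complex 5 rose. These were the acetyltransferase genes Ep300 (p300; 20.5 ± 1.69 to 34.1 ± 5.31 FPKM, log2 0.70, adjusted p = 0.0197), Crebbp (CBP; 28.8 ± 1.69 to 45.4 ± 3.60 FPKM, log2 0.64, adjusted p = 0.0197) and Kat2b (log2 0.35, adjusted p = 0.0460), and the coactivators Maml1 (log2 0.50, adjusted p = 0.0240) and Maml2 (log2 0.87, adjusted p = 0.0240). Rbpj itself stood at 6.11, 6.61 and 6.73 FPKM with vehicle and at 8.51, 8.02 and 9.69 FPKM with AMD3100. Its groups did not overlap, as held for 13.1% of all genes in that direction, and it was not called (log2 0.38, paired adjusted p = 0.0596). In the complex 8 of the 10 genes had a positive difference, and 0 were called lower. Snw1, which was not called, stood at 88.1, 90.1 and 102 FPKM with vehicle and at 81.3, 76.6 and 75.2 FPKM with AMD3100. The Snw1 groups did not overlap, as held for 15.8% of all genes in the lower direction.

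Of 6 corepressor genes 3 rose in the paired fit, among them Spen (log2 0.50, adjusted p = 0.0238) and Ncor1 (log2 0.36, adjusted p = 0.0333), which act on RBPJ in the absence of the Notch intracellular part. Of 8 genes of receptor trafficking and turnover 1 rose, Dtx3, an E3 ligase related to Dtx1 (log2 0.37, adjusted p = 0.0472). None of the 7 cleavage genes or the 4 genes of glycosylation was called. No ligand passed the filter on low values. Dll4 was listed at 0 in 5 of the 6 ex vivo libraries, and Jag1 stood at 0.0348 to 1.60 FPKM. After the length correction 4 of the list's genes were called, among them Maml2 (0.70), Ep300 (0.42, adjusted p = 0.0438) and Dtx3 (0.46). No longer called were Spen (0.17, adjusted p = 0.185), Ncor1 (0.10, adjusted p = 0.374), Crebbp (0.33, adjusted p = 0.0692), Kat2b (0.28, adjusted p = 0.0856) and Maml1 (0.37, adjusted p = 0.0513). Without pair 1 or without pair 2 the count was 0, and without pair 3 it was 5.

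**Figure D3:**
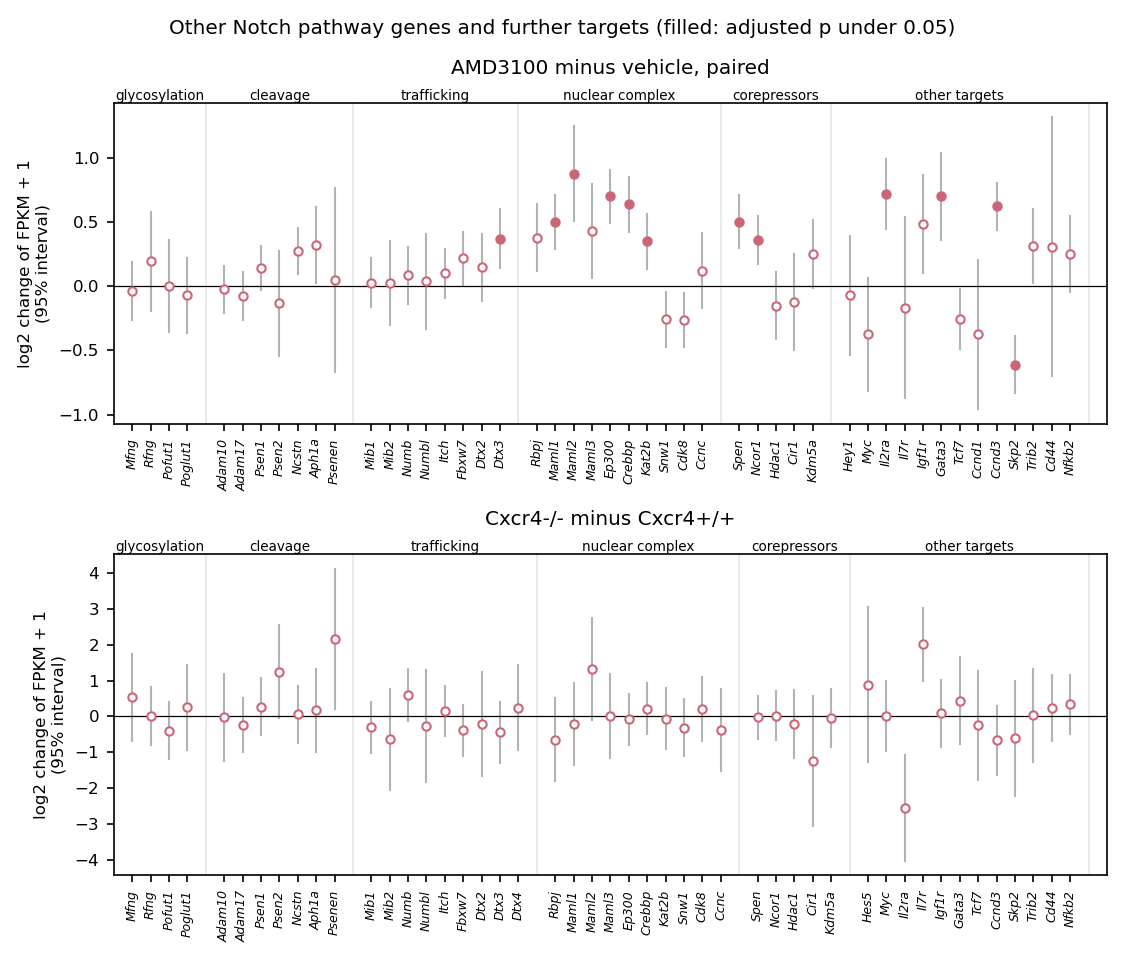
Log2 difference of FPKM + 1 for kept genes of the Notch pathway list, by role, and of the further targets at the right; upper panel AMD3100 minus vehicle (paired), with 34 of the 35 pathway genes drawn, lower panel knockout minus wild-type tumours. Points are genes, bars 95% intervals and filled points had an adjusted p under 0.05; the 8 filled pathway points lie above 0, 5 of them in the nuclear complex, Skp2 is the filled point below 0, and no point is filled in the tumours.

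A second list held 16 further genes described as Notch targets in T cells, of which 13 were kept ex vivo. With pairing 3 rose and 1 fell, against 9.96% higher and 9.92% lower of all genes. Without pairing 0 were called, against 0.127% of all genes. An unadjusted p under 0.05 was seen for 3, against 21.5% of all genes. Il2ra, the interleukin-2 receptor alpha chain of early thymocytes, stood at 344, 235 and 141 FPKM with vehicle and at 474, 398 and 269 FPKM with AMD3100 (log2 0.72, paired adjusted p = 0.0208). The groups overlapped while every pair was higher. Gata3, a T lineage transcription factor (log2 0.70, adjusted p = 0.0299), and Ccnd3, the cell cycle regulator cyclin D3 (log2 0.62, adjusted p = 0.0197), rose as well. Skp2, a ubiquitin ligase subunit that acts in cell cycle progression, fell by 0.61 (adjusted p = 0.0199). These 4 calls are paired, and 0 were made without pair 1 or without pair 2. Myc, a growth regulator and a central Notch target in T-ALL, had a log2 difference of -0.38 and was not called (paired adjusted p = 0.172). Il7r, the receptor for the cytokine in the medium, had a log2 difference of -0.17 (adjusted p = 0.685).

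In the tumours, knockout of Cxcr4 came with lower values of Notch3 and Hes1 and higher values of Lfng without overlap between the genotypes, but limma called none of the 9 members. Notch3 had a mean of 4.16 ± 2.72 FPKM in knockout and 32.2 ± 24.4 FPKM in wild type (SD, n = 3). Lfng had 109 ± 43.3 and 32.0 ± 13.6 FPKM. The test called 0.0372% of the 10741 genes kept (0.0186% in each direction), and 4.28% had an unadjusted p under 0.05. Notch3, Lfng and Ptcra were the 3 members below that level. Groups without overlap were seen for 3 of the 9 members, 1 higher and 2 lower, and for 9.21% of all genes (4.01% higher and 5.2% lower).

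Among the receptors, Notch3 stood at 59.8, 13.6 and 23.1 FPKM in wild-type tumours 1, 2 and 4 and at 1.54, 6.98 and 3.95 FPKM in knockout tumours 5, 7 and 8. The highest knockout value lay well under the lowest wild-type value. The log2 difference was -2.58 (SE 0.64, 95% interval -4.09 to -1.07, unadjusted p = 0.00474, limma adjusted p = 0.986), and it ran from -3.04 to -2.01 over the alternatives.

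Notch1 stood at 248, 73.4 and 176 FPKM in wild type and at 63.5, 89.1 and 68.6 FPKM in knockout. Wild type 2 lay within the knockout range, so the groups overlapped (log2 -1.01, SE 0.46, adjusted p = 0.986). Notch2 stood at 9.32, 24.7 and 8.49 FPKM in wild type and at 14.7, 18.0 and 19.2 FPKM in knockout. Wild type 2 held the highest Notch2 of the 6 (log2 0.42, SE 0.44, adjusted p = 0.986), and it also had the highest sums of macrophage markers, 341 FPKM against 12.3 to 106 in the others, and of neutrophil markers, 3106 FPKM against 5.56 to 318. Most of that macrophage sum was Lyz2, at 276 FPKM in wild type 2. Csf1r and Cd68 were also highest there, at 16.2 and 24.3 FPKM. C1qa, C1qb and C1qc were instead higher in knockout 8, at 7.37, 34.0 and 22.5 FPKM against 5.09, 5.22 and 9.28 FPKM in wild type 2. In knockout 7 C1qa and C1qc were also above wild type 2, at 6.55 and 24.6 FPKM, and C1qb was below it, at 4.47 FPKM. The part of these markers in the Notch2 values was not tested.

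Lfng stood at 38.3, 41.4 and 16.3 FPKM in wild type and at 64.7, 151 and 111 FPKM in knockout. Every knockout tumour was above every wild-type tumour, and the smallest of them was well above the largest wild-type value. This was a log2 difference of 1.76 (SE 0.47, 95% interval 0.67 to 2.85, unadjusted p = 0.00646, limma adjusted p = 0.986). B cell markers differed the same way. Their summed FPKM was 37.1, 28.1 and 12.5 in wild type and 42.4, 49.8 and 56.3 in knockout, with 1 to 6 of 8 markers at 0 in wild type and 0 to 5 in knockout. Most of it was Cd22, while the defining B cell marker Ms4a1 was between 0 and 2.56 FPKM in the tumours, and at 0 in wild type 4 and knockout 8. Their part in the Lfng values was not tested.

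Hes1 was even in wild type, at 30.6, 30.0 and 33.3 FPKM, and uneven in knockout, at 28.9, 10.4 and 3.54 FPKM. Knockout 5 lay just under the wild-type range, so the separation rests on a small gap (log2 -1.48, SE 0.64, adjusted p = 0.986). Without knockout 8 the difference was -0.81. Knockout 8 had the most genes listed at 0, 13231 against 10423 to 11433 in the other tumours. The part of this in its low Hes1 value was not tested. Ptcra stood at 124, 23.6 and 57.8 FPKM in wild type and at 6.98, 7.55 and 25.6 FPKM in knockout. Its groups overlapped through wild type 2 and knockout 8 (log2 -2.21, SE 0.70, unadjusted p = 0.0153, adjusted p = 0.986).

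Dtx1 stood at 488, 157 and 206 FPKM in wild type and at 226, 469 and 309.9 FPKM in knockout, with a wide spread in both (log2 0.35, 95% interval -0.82 to 1.53, adjusted p = 0.990). Nrarp stood at 16.4, 26.7 and 129.8 FPKM in wild type and at 25.9, 11.5 and 51.5 FPKM in knockout (log2 -0.61, 95% interval -2.55 to 1.33, adjusted p = 0.990). Heyl stood at 34.6, 11.0 and 18.2 FPKM in wild type and at 7.37, 20.5 and 24.3 FPKM in knockout (log2 -0.29, 95% interval -1.61 to 1.04, adjusted p = 0.995). For these 3 genes the genotypes overlapped, and the intervals include changes of more than 2-fold in at least 1 direction.

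**Figure D4:**
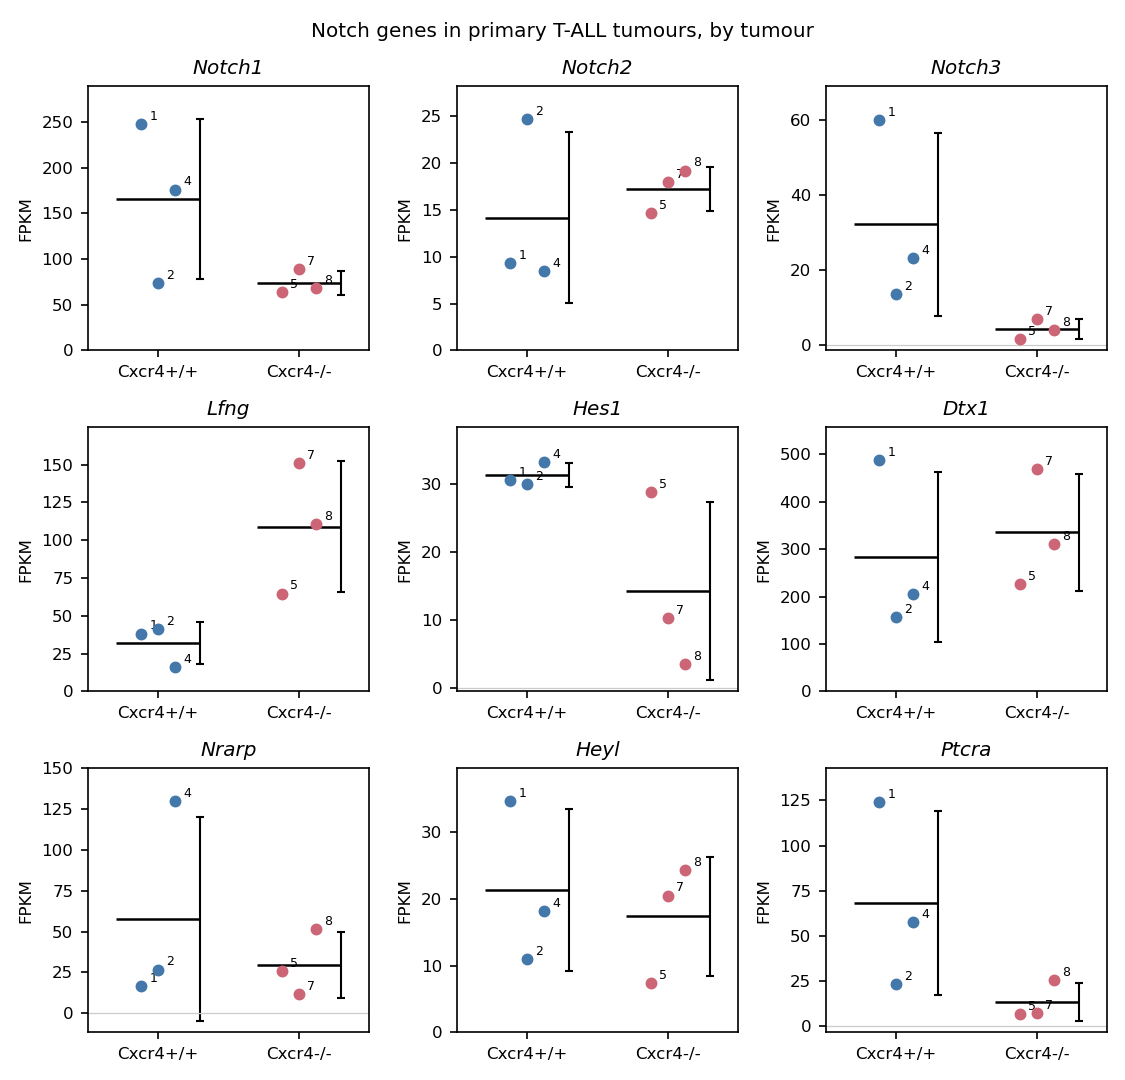
FPKM of each of the 9 Notch genes in the tumours, 1 panel a gene with its own axis; points are tumours with their numbers, and black lines and bars are the mean and SD of 3 tumours. Wild-type and knockout points do not overlap for Notch3, Hes1 and Lfng, and wild-type tumour 1 is the highest for Notch1, Notch3, Dtx1, Heyl and Ptcra.

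Because the T cell marker level varied between tumours, each gene was also read as a ratio to the geometric mean FPKM of the 6 T cell markers, which was 611, 161 and 204 in wild type and 209.8, 467 and 346 in knockout. On this scale Notch3 was 0.0979, 0.0847 and 0.113 in wild type 1, 2 and 4 and 0.00733, 0.0149 and 0.0114 in knockout 5, 7 and 8. The wild-type tumours were closer together than in FPKM, and the highest knockout ratio was well under the lowest wild-type ratio. Notch1 and Ptcra, whose groups overlapped in FPKM, separated as ratios. Notch1 was 0.406, 0.457 and 0.863 in wild type and 0.303, 0.191 and 0.198 in knockout. Ptcra was 0.203, 0.146 and 0.283 in wild type and 0.0332, 0.0162 and 0.0742 in knockout.

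Lfng ratios were 0.0626, 0.257 and 0.0800 in wild type and 0.308, 0.324 and 0.320 in knockout, with the 3 knockout tumours nearly equal and wild type 2 not far below them. Hes1 ratios overlapped, at 0.05, 0.187 and 0.163 in wild type and 0.138, 0.0222 and 0.0102 in knockout. Dtx1 varied least on this scale: its highest tumour was 1.35 times its lowest, against 3.11 times in FPKM. In all, 4 of the 9 members separated as ratios, 3 lower and 1 higher in knockout, against 6.58% of all genes. This scaling moved the median difference of all genes in the tumours by -0.24. With it limma again called none of the members, and the log2 differences were -2.83 for Notch3, -2.44 for Ptcra, -1.26 for Notch1 and 1.51 for Lfng.

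**Figure D5:**
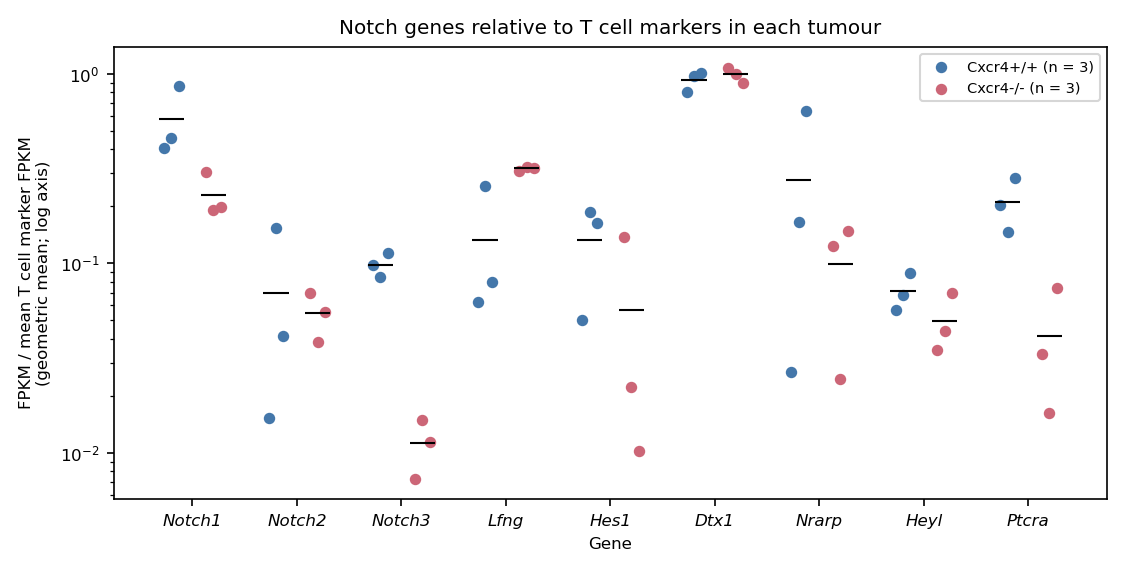
Ratio of each member's FPKM to the geometric mean FPKM of 6 T cell markers in the tumours, on a log axis; points are tumours and black lines the mean of 3. Knockout points lie below wild-type points for Notch1, Notch3 and Ptcra and above them for Lfng, and the 6 Dtx1 points lie close together.

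None of the 36 kept genes of the pathway list was called in the tumours, with 1 at an unadjusted p under 0.05, against 4.28% of all genes. The list's median was -0.03, as over all genes (-0.03). Rbpj had a log2 difference of -0.65, Maml1 of -0.22 and Mfng of 0.53. Dll4 was listed at 0 in every tumour, and Jag1 at no more than 0.181 FPKM. Of the 12 kept genes of the further target list none was called, with 2 at an unadjusted p under 0.05, against 4.28% of all genes. Both separated the genotypes, as did 9.21% of all genes. Il2ra stood at 138, 27.8 and 87.0 FPKM in wild type and at 6.16, 16.6 and 13.0 FPKM in knockout (log2 -2.55, adjusted p = 0.986). Il7r stood at 30.5, 10.7 and 17.9 FPKM in wild type and at 59.6, 109 and 66.7 FPKM in knockout (log2 2.01, adjusted p = 0.986). Myc had a log2 difference of 0.01, and of -0.24 after scaling to T cell markers.

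Read side by side, Lfng was higher in both comparisons, by 1.19 and 1.76 on the log2 scale. Ptcra was lower in both, by a log2 difference of -1.02 and -2.21. Notch1, Notch3 and Hes1 had positive differences ex vivo and negative ones in the tumours. Il2ra went the same way as these 3 genes, at 0.72 and -2.55. The comparisons differ in agent and material and share no samples, and the difference between them was not tested.

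The genes whose levels were most like a member's were found among 9035 annotated genes kept in both tables, by the smaller of the Pearson correlations of log2(FPKM + 1) over the 6 ex vivo samples and over the 6 tumours. These values describe points that share library, depth and T cell content, and with 6 samples a table many genes reach high values. For Lfng the most alike was Ralgds (0.978 ex vivo and 0.989 in the tumours), followed by Mboat7 and Tex264. For Dtx1 they were Slain1 (0.970 and 0.979), Hivep2 (0.956 and 0.993) and Slc25a23, and for Hes1 Dzip3 (0.967 and 0.979), Npat and Rbm15b. Notch3 was most like Dennd1a (0.996 and 0.919), which was also second for Notch1 (0.871 and 0.966) after Gtf3c1 (0.955 and 0.872). Notch2 was most like the receptor tyrosine kinase gene Kit (0.925 and 0.928). Nrarp was most like Abcc1 (0.973 and 0.956), Heyl most like Wls (0.954 and 0.959) and Ptcra most like the integrin gene Itga9 (0.927 and 0.971). No member stood among the 3 most alike of another, because members were left out of the search.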

How the data were processed

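RNA of 12 samples was measured in 4 groups of 3. The authors deposited FPKM values, in 2 tables of 6 samples. CASAVA, TopHat and the build mm9 are named in the submitters' processing notes. Not given in the sources used here are the FPKM program, its annotation and its use of strand. Libraries were strand-specific with 50-base single reads, per the labels' protocols. Gapdh was listed at or near 0 in every library, so a 0 may be a failed estimate. Genes averaging 1 FPKM or more in a table were kept, and 1 was added before the log2.

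For each comparison a separate model was fitted in limma 3.58.1 (R 4.3.3; eBayes with a mean trend, two-sided), and the code was tested on simulated data. The design fitted no block. Same-numbered vehicle and AMD3100 samples deviated together from their group means (correlations 0.467, 0.579 and 0.619, all over the limit of 0.1; -0.473 to 0.0455 for other pairs), so the blocked fit is printed beside it. The pairing rests on the shared numbers and these values, since the labels do not say what a number marks. An exact permutation test of 3 against 3 cannot give a p under 0.1, so none was run.

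The members and lists were chosen with earlier results of these data known. Named were all 9 members, Cxcr4, list genes called in either fit and, always, Rbpj, Maml1, Mfng, Dll4, Jag1, Myc, Il2ra and Il7r, and up to 3 genes most like each member. Pdgfrb, Col1a1, Cd22, Ms4a1, Lyz2, Csf1r, Cd68, C1qa, C1qb and C1qc were named as markers. Snw1 was named outside this rule, as an uncalled gene of the nuclear complex with lower values. Items withheld from this text are not reported here. Alternatives were pseudocounts of 0.1 and 0.5, filters of 0.1, 5 and none, median-of-ratios, TMM, quantile and T cell marker scaling, scaling without haemoglobin genes, no mean trend, a length correction (longest GENCODE transcript, build GRCm38, matched by symbol), the block, and each library left out. Further settings of the paired fit, and leaving out each pair, were added after the data were seen.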

Additional observations from a re-analysis of the deposited data

How the results depend on the processing

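Without pairing, 0 members were called, and with the replicate block 5 were higher. With pairing that count was 6 with quantile normalisation (Notch1 added, 0.43, limma adjusted p = 0.0485) and with T cell marker scaling, 4 with the length correction, 1 without a filter on low values, 2 without the mean trend, and 0 to 2 when a pair was left out. Without pairing no member was called under any other alternative run, and none was called in the tumours. Of the pathway list, 1 gene (Crebbp) was called without pairing with a filter of 5 FPKM or median-of-ratios scaling. Over all genes, the unpaired count of 13 became 188 (filter of 5 FPKM), 89 (median-of-ratios, 24 higher and 65 lower), 8 (no filter), 3 (quantile), 2 (T cell marker scaling), 1 (no mean trend) and 3 to 5 with a library left out. The paired count of 2036 became 1285 with the length correction, 1074 without a filter, 1089 without the mean trend, and 9, 7 and 1207 without pairs 1, 2 and 3. The 4 calls in the tumours became 0 with T cell marker scaling, without a filter and without knockout 7 or 8, and 1 without knockout 5 or wild type 2. In each tumour alternative Notch1, Notch2, Notch3, Lfng, Hes1, Dtx1 and Ptcra kept their direction.

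Some uncalled genes changed sign. Mfng, with AMD3100, was 0.059 after T cell marker scaling with or without pairing and 0.064 after length correction of the paired fit. Myc in the tumours was -0.24 after T cell marker scaling. With a library left out, the AMD3100 difference ran from -1.05 to 0.52 for Heyl, -0.53 to 0.33 for Il7r, -0.089 to 0.018 for Mfng and -0.59 to 0.57 for Nrarp. With a pair left out it ran from -0.37 to 0.016 for Heyl, -0.47 to 0.24 for Il7r, -0.11 to 0.049 for Mfng and -0.074 to 0.24 for Nrarp. In the tumours it ran from -0.66 to 0.21 for Heyl, -1.21 to 0.25 for Nrarp, -0.60 to 0.15 for Maml1 and -0.26 to 0.32 for Myc. The cause of these changes was not tested. Depth is not known in the tumours, which limits what low values there can show.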
